A study of Mus musculus with 6 samples.

Results

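The variable (V) segments of the T cell receptor loci were counted in mouse CD8 T cells whose gene for the transcription factor MondoA was intact or targeted by Cre. The segments were all genes whose mouse symbol begins with Trav, Trbv, Trgv or Trdv and that held at least 10 reads summed over 6 RNA sequencing libraries. Of 170 genes with such a symbol among the 57010 gene identifiers in the table, 105 met that minimum: 75 of 128 alpha segments, 26 of 35 beta segments, 3 of 6 delta segments and 1 gamma segment. The summed reads therefore chose the members, and the comparison of genotypes did not. Just inside the minimum stood Trav14n-1 with 12 reads and Trbv6 with 11, and just outside it Trav9n-3 with 8 and Trbv25 with 9. Of the members, 12 held under 10 reads in the 3 WT libraries and 7 held under 10 in the 3 KO libraries, so each of these owed much of its place to the other genotype.

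All 6 samples were naive CD8 T cells of C57BL/6 mice at 8 weeks of age, taken from spleen and lymph nodes and then stimulated with antibodies to CD3 and CD28 for 24 hours. The 3 WT samples came from MondoAfl/fl mice, whose floxed gene stays whole for want of Cre, and the 3 KO samples from MondoAfl/flCD4cre mice. CD4cre is active from the stage at which developing thymocytes rearrange the alpha locus, so the deletion can precede the final choice of an alpha chain. Every KO sample and no WT sample carried Cre, so MondoA loss and Cre itself cannot be told apart as sources of a difference. Whether the 3 samples of a genotype are 3 mice is not stated in the labels, so p-values measure only the spread among samples, which may be technical.

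A T cell receptor gene is assembled in the thymus by V(D)J recombination, in which the RAG proteins join 1 V segment to a joining (J) segment, with a diversity segment between them in the beta and delta loci. Each alpha beta T cell thus carries its own receptor, and the shares of V segments in the RNA of many cells describe the repertoire. Beta genes are rearranged before alpha genes, and the alpha locus can rearrange repeatedly, using V segments ever farther upstream and J segments ever farther downstream. In C57BL/6 mice a stretch of the alpha locus on chromosome 14 has been copied, and the copies carry a d or an n after the family number in their names. In the order of the annotation the 75 alpha members began with unmarked segments, went on with the d copies and then the n copies, and ended with a second run of unmarked segments next to the J segments. The beta locus lies on chromosome 6 and has few such copies.

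The sequences show why the families matter for these counts. The last 60 bases of the leading members of the Trbv12 and Trbv13 families, which held the most beta reads, are given with the codon of the conserved cysteine, where the hypervariable CDR3 loop of the receptor begins, in capitals. All sequences are the GENCODE M21 transcripts of GRCm38, written 5′ to 3′.
Trbv12-1: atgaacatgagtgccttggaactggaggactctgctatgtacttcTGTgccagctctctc
Trbv12-2: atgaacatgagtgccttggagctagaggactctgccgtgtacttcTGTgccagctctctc
Trbv13-1: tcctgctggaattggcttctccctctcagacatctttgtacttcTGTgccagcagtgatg
Trbv13-2: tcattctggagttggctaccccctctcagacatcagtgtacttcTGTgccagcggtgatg
Trbv13-3: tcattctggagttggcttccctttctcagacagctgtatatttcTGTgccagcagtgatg
Trbv12-1 and Trbv12-2 were 88.3% identical over their aligned length, and Trbv13-2 and Trbv13-3 were 90.6% identical. The alpha copies stood closer together. Of the 3 Trav16 segments, Trav16 itself had the smallest p of all members in the comparison of genotypes. The last 300 bases of the 3 are given with every base that differs among them in capitals.
Trav16: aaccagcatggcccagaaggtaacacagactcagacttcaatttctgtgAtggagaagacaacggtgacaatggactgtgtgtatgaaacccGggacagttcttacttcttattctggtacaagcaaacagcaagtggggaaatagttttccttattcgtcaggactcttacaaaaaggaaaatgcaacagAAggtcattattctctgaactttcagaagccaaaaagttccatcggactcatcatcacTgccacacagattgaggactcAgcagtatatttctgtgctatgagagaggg
Trav16n: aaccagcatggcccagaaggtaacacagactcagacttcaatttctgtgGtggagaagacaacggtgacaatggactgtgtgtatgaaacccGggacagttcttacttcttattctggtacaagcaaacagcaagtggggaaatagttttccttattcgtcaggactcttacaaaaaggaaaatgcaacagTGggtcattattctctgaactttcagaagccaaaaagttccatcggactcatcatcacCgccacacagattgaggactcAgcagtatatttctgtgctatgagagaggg
Trav16d-dv11: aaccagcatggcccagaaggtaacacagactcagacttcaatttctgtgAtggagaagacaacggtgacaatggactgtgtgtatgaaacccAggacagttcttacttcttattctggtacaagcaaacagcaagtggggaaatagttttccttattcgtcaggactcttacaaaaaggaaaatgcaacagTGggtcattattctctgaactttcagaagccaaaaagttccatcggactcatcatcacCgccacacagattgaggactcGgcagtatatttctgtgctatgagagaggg
Over these 300 bases Trav16 and Trav16n differ at 4 bases, Trav16 and Trav16d-dv11 at 5, and Trav16n and Trav16d-dv11 at 3. Of the 50-base windows of the whole segments, 51.75% were unique in Trav16, 42.7% in Trav16n and 37.17% in Trav16d-dv11, and a read that covers no differing base cannot be assigned to 1 copy.

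Total gene counts ran from 26150420 in WT 3 to 34447230 in KO 3, and V segments held between 9266 and 13046 of them. Mlxip, the gene of MondoA, averaged 129 ± 11.1 CPM over the WT libraries and 86.0 ± 6.54 over the KO libraries (SD, n = 3 each). Its libraries did not overlap, but its log2 difference of -0.58 had an adjusted p of 0.125 (edgeR, Benjamini-Hochberg), so it was not called. Markers of CD8 T cells (Cd3e, Cd3d, Cd8a, Cd8b1, Trac and Lck) summed to between 1843 and 2248 CPM in WT and between 2146 and 2461 CPM in KO. CD4 T cell markers summed to between 13.7 and 26.2 CPM in WT and between 9.52 and 15.5 CPM in KO, B cell markers to between 51.0 and 86.8 CPM and between 26.4 and 62.8 CPM, and myeloid markers, nearly all Cst3, to between 71.9 and 164 CPM and between 57.7 and 99.3 CPM. CPM is a read count relative to the library's size, here scaled by the trimmed mean of M-values (TMM). In bulk samples fewer cells of a type and less RNA per cell cannot be told apart.

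Beta V segments held between 7316 reads in WT 3 and 10100 reads in KO 1. Their usage was broad, and the leading segments held similar shares in every library. Beta shares still varied beyond counting error, as given below. The 5 leading segments took 46.8 ± 1.83% of beta V reads in WT and 44.8 ± 1.37% in KO (SD, n = 3 each). Trbv12-1 led in all libraries except KO 3, with 11.25%, 12.03% and 12.6% in the 3 WT libraries and 10.5%, 11.8% and 11.5% in the 3 KO libraries. Trbv13-2 followed with 10.2%, 10.2% and 11.1% in WT and 10.2%, 10.6% and 11.6% in KO, and Trbv12-2 with 9.98%, 10.2% and 10.7% in WT and 9.92%, 9.55% and 10.2% in KO. The 95% Wilson interval of a beta share in 1 library was at most 0.761 percentage points wide on either side, which covers counting error only, so the order of these 3 segments is not settled in every library. Per kilobase of annotated exon Trbv13-2 came first (91.1 CPM per kilobase), then Trbv12-1 (86.7) and Trbv12-2 (76.2).

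The families Trbv12 and Trbv13 together held 43.3% of beta V reads. Trbv13 took 21.2 ± 0.41% in WT and 21.7 ± 0.42% in KO, and Trbv12 took 22.4 ± 1.09% and 21.3 ± 0.70% (SD, n = 3 each). Trbv16, Trbv19, Trbv13-1, Trbv3, Trbv1, Trbv29 and Trbv13-3 filled the places from the fourth to the tenth, with mean shares falling from 6.79% to 4.596%. Trbv31, which lies downstream of the constant genes in inverted orientation, took 2.70 ± 0.179% in WT and 2.24 ± 0.357% in KO (SD, n = 3 each). Below a gap in the order, 9 segments from Trbv23 (0.596%) to Trbv6 (0.0200%) shared the remainder. Of the 26 beta members 4 are annotated as pseudogenes, and together they took 0.660 ± 0.285% in WT and 0.487 ± 0.0618% in KO (SD, n = 3 each). All 9 beta segments under the read minimum are annotated as pseudogenes.

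**Figure D1:**
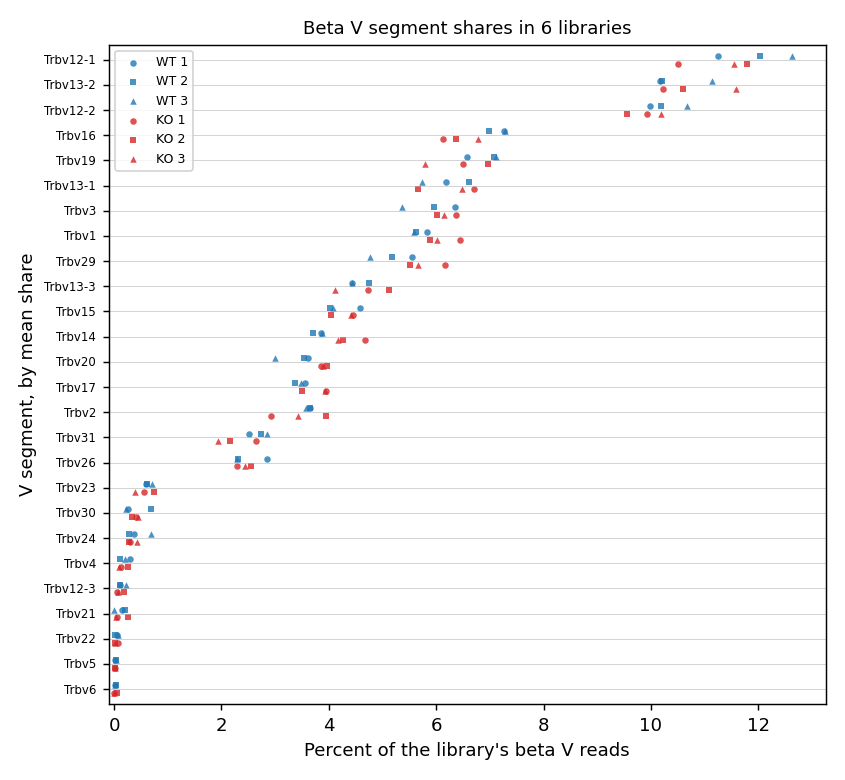
Share of each of the 26 beta V segments (rows, ordered by mean share) in percent of the beta V reads of a library (horizontal axis), with 1 point for each of 3 WT (blue) and 3 KO (red) libraries. Trbv12-1, Trbv13-2 and Trbv12-2 stand apart at about 9.55% to 12.6%, and the points of both genotypes lie close together in most rows.

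Alpha V segments held fewer reads, between 1925 in WT 3 and 3141 in KO 3, and spread over more segments. For every 100 beta V reads there were 27.4 ± 1.24 alpha V reads in WT and 30.4 ± 1.65 in KO (SD, n = 3 each). Trav16n led in all 6 libraries, with 6.75%, 6.86% and 7.53% of alpha V reads in WT and 6.65%, 6.12% and 6.27% in KO. Trav14n-3 followed at a mean of 4.35%, Trav12-2 at 4.30%, Trav16 at 4.19% and Trav13-1 at 3.95%. Per kilobase of exon Trav16n and Trav14n-3 stayed in front and Trav13-1 came next. Trav8-1, Trav7-4, Trav3-3, Trav14-2 and Trav5-4 completed the leading 10, which held 37.8 ± 1.91% of alpha V reads in WT and 38.7 ± 0.762% in KO (SD, n = 3 each). By family Trav14 (13.4%) and Trav7 (13.02%) held most, then Trav16 (11.9%), Trav13 (9.53%) and Trav6 (8.94%).

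Unmarked alpha segments took 70.6 ± 2.09% of alpha V reads in WT and 70.8 ± 1.69% in KO, d copies 10.4 ± 1.26% and 12.7 ± 3.01%, and n copies 19.0 ± 1.35% and 16.5 ± 1.46% (SD, n = 3 each). An exact two-sided permutation test gave p = 0.9 for unmarked, 0.4 for d and 0.2 for n segments. With 3 samples against 3 such a test cannot go below 0.1, which holds for every exact test given here. Segments that also bear a delta name (dv) took 7.95 ± 1.36% in WT and 7.96 ± 0.789% in KO (SD, n = 3 each). Trav1, the segment of the invariant receptor of mucosal-associated T cells, held 17, 24 and 8 reads in WT and 29, 17 and 18 in KO, 0.681% of alpha V reads on average. Trav11, which invariant natural killer T cells use, held 0 reads in all 6 libraries, a count that allows up to 3 reads in each. Trav11 is nearly identical to Trav11d, which held 2 reads, both in WT 2, so its level could not be measured. Trav11n, annotated as a pseudogene and the only member of that family, held 8, 2 and 2 reads in WT and 1, 0 and 0 in KO.

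**Figure D2:**
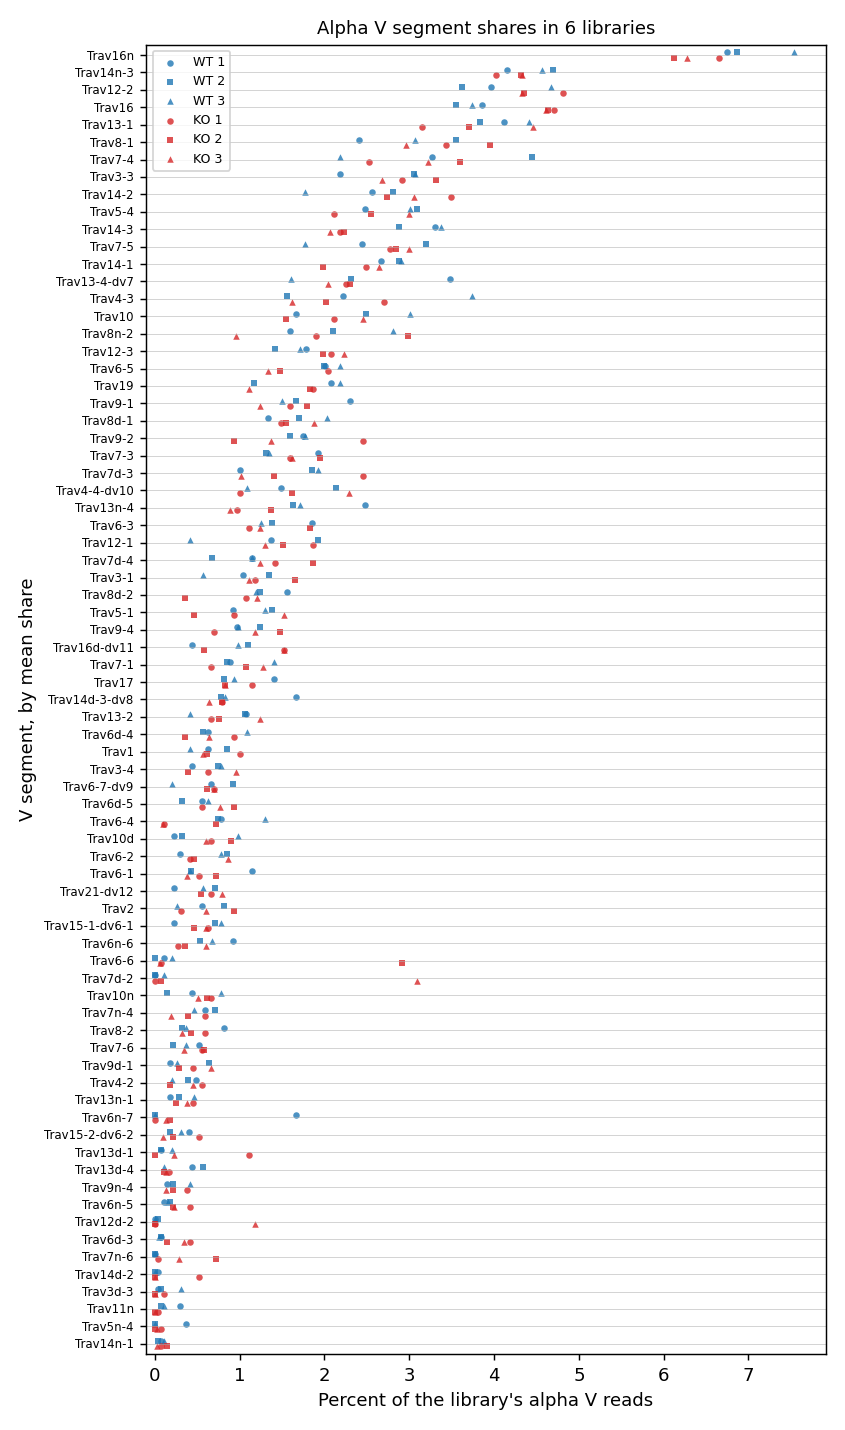
Share of each of the 75 alpha V segments (rows, ordered by mean share) in percent of the alpha V reads of a library (horizontal axis), with 1 point for each of 3 WT (blue) and 3 KO (red) libraries. Trav16n leads in every library, and single points far to the right of their row mark Trav6-6 in KO 2 (2.915%), Trav7d-2 in KO 3 (3.09%), Trav6n-7 in WT 1 (1.67%) and Trav12d-2 in KO 3 (1.18%).

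The reads of an alpha segment went with how far its sequence could be told from its copies. For each segment the share of 100-base windows that occur in no other annotated V segment was taken as a measure of uniqueness. Neither the read length nor how multi-mapped reads were handled is stated in the labels or processing notes. Among the 108 alpha segments annotated as functional, 57 were unique in at least 50% of their windows, and these held a median of 178 reads over the 6 libraries and 89.2% of all reads, with 55 of them members. The 36 segments unique in under 1% of their windows held a median of 2 reads and 2.43% of all reads, and 8 of them were members. Of the 35 functional alpha segments under the read minimum, 27 had no unique window at all. The 2 that fell under the minimum although fully unique were Trav18 with 6 reads and Trav23 with 2. The functional beta segments had a median of 100% unique windows, and none of them fell under the minimum. Whether the low counts of copied segments reflect their use by cells was not tested.

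**Figure D3:**
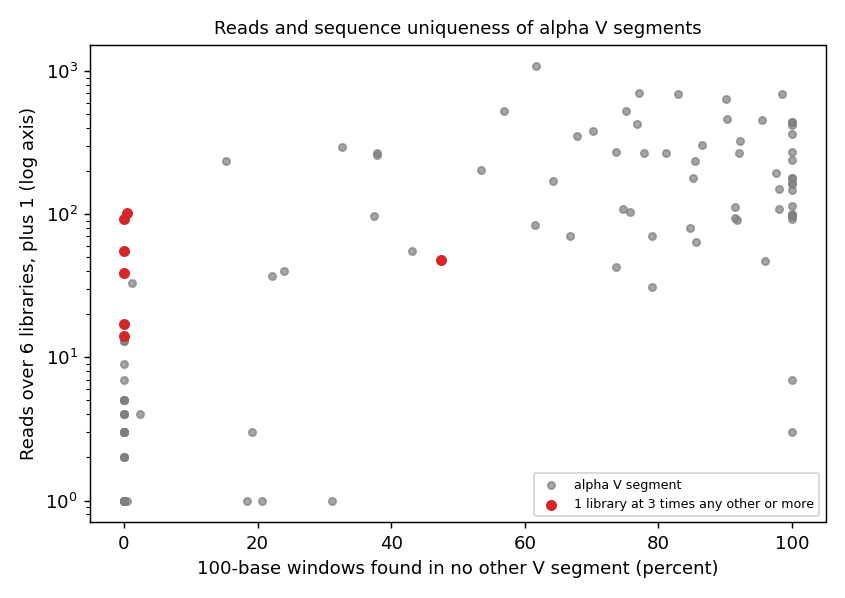
Reads summed over 6 libraries plus 1 (vertical log axis) against the percent of 100-base windows found in no other V segment (horizontal axis) for the 108 functional alpha V segments. Most segments with few unique windows sit at the bottom left, and of the 7 segments with 1 library at 3 or more times the share of any other (red) 6 lie at the left edge, Trav7d-2 and Trav6-6 the highest of them.

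A small group of alpha segments held nearly all of its reads in 1 library. They were picked by that pattern, so their values are a description. Trav7d-2 held 0, 0 and 2 reads in WT and 0, 2 and 97 in KO, and the 97 reads made up 3.09% of alpha V reads in KO 3 (95% Wilson interval 2.54% to 3.75%), the seventh highest share of that library. Trav6-6 held 3, 0 and 4 reads in WT and 2, 81 and 2 in KO, which was 2.915% in KO 2 (2.35% to 3.61%). Trav6n-7 held 45, 0 and 0 reads in WT and 0, 5 and 4 in KO, which was 1.67% in WT 1 (1.249% to 2.225%). Each thus peaked in another library, and both genotypes held such a library. Trav12d-2 held 37 of its 38 reads in KO 3, Trav14d-2 held 15 of its 16 in KO 1, and Trav5n-4 held 10 of its 13 in WT 1.

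By the same pattern, 1 library at 3 or more times the share of any other, a further segment was Trav13d-1, with 32 reads in KO 1, at most 7 elsewhere and 47.5% unique windows. The 6 segments above each have an exact or nearly exact copy elsewhere in the locus, with under 1% unique windows. The read minimum favours such a peak: 7 of the 8 alpha members with under 1% unique windows, all except Trav6-6 with 11 reads, would have held under 10 reads without their highest library. How often a peak occurs can therefore not be compared between copied and unique segments. The copies held few reads in the same libraries. Trav7-2, the copy of Trav7d-2, held 0 reads in KO 3, Trav6d-6, the copy of Trav6-6, held 0 in KO 2, and Trav6d-7, the copy of Trav6n-7, held 0 in WT 1. The last 60 bases of 4 of these segments are shown with the cysteine codon in capitals. Trav6n-7 and Trav6-6, of the same family, are nearly alike there, and the copies of the 4 are not shown.
Trav7d-2: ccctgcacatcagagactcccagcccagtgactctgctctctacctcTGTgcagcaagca
Trav12d-2: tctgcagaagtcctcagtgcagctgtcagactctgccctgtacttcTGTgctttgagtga
Trav6n-7: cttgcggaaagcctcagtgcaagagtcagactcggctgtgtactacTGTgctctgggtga
Trav6-6: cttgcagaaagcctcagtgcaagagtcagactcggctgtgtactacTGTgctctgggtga
Whether expanded clones, reads placed by a junction or another source gave these peaks was not tested.

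The comparison of KO with WT asks whether loss of MondoA came with another use of V segments. No V segment passed the test. Of the 105 members 84 passed the filter on low counts, and 0 of the 84 passed an adjusted p of 0.05 in edgeR's quasi-likelihood test, adjusted by Benjamini-Hochberg over the 16439 genes tested, where 0.0122% of all genes did. DESeq2 also called 0 members, where it called 0.931% of all genes. At an unadjusted p under 0.05 edgeR gave 2 members, Trav16 and Trav7d-4, both higher in KO, where 5.05% of all genes were higher and 5.77% lower by that rule, and DESeq2 gave 1, Trav16. The median log2 fold change was 0.16 over 59 tested alpha segments, 0.020 over 23 tested beta segments and -0.016 over all genes. Of the 84 tested members 59 had a log2 fold change above 0 and 25 below, where 47.2% of all genes were above 0. That split moved with the scaling, to 47 and 37 with library size alone and to 40 and 42 relative to the V reads of the locus. Trac, the constant gene that all alpha chains share, was itself at 0.25. The smallest adjusted p among members was 0.392 for alpha and 0.528 for beta (edgeR, Benjamini-Hochberg). Standard errors had a median of 0.40 in alpha and 0.142 in beta segments on the log2 scale.

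Trav16 had the smallest p of all members. It held 104, 100 and 72 reads in WT and 136, 129 and 145 in KO, or 3.86%, 3.56% and 3.74% of alpha V reads in WT and 4.71%, 4.64% and 4.62% in KO. All 3 KO libraries lay above all 3 WT libraries. Its level averaged 2.91 ± 0.232 CPM over WT and 4.18 ± 0.224 CPM over KO libraries (SD, n = 3 each). The fitted log2 difference was 0.52 ± 0.190 (SE), and its adjusted p was 0.392 (edgeR, Benjamini-Hochberg). Relative to the V reads of the locus the log2 difference was 0.32, and there, as without WT 3 or without KO 1, its unadjusted p was not under 0.05. Its near copy Trav16n had a share of 7.05 ± 0.424% in WT and 6.35 ± 0.274% in KO (SD, n = 3 each), and the genotypes were apart in share but overlapped in CPM. The whole Trav16 family took 11.6 ± 0.610% in WT and 12.2 ± 0.795% in KO (SD, n = 3 each), and there the libraries overlapped (exact permutation p = 0.4). As the sequences above show, the 2 copies differ at 4 of 300 bases.

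In the family Trav12 the 4 members together took 6.98 ± 0.16% of alpha V reads in WT and 8.55 ± 0.63% in KO (SD, n = 3 each, exact permutation p = 0.1), and no KO library fell among the WT libraries. Without Trav12d-2 and its peak in KO 3 the family took 6.96 ± 0.157% in WT and 8.16 ± 0.525% in KO (SD, n = 3 each). Trav12-2 averaged 3.18 ± 0.128 CPM over WT and 4.05 ± 0.393 CPM over KO libraries, and Trav12-3 at 1.28 ± 0.0845 CPM and 1.89 ± 0.188 CPM (SD, n = 3 each). Their log2 differences, 0.35 and 0.56, did not pass the test, and relative to the V reads of the locus they were 0.14 and 0.36. In shares the libraries of Trav12-2 overlapped (4.09 ± 0.535% in WT, 4.50 ± 0.273% in KO, SD, n = 3 each, exact permutation p = 0.3). The other alpha family whose libraries did not overlap was Trav11, which rests on the 13 reads of the pseudogene Trav11n, most of them in WT. Over the 19 alpha families the smallest exact p after Benjamini-Hochberg adjustment was 0.760 by permutation, and over the 22 beta families 0.489.

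On the other side stood Trav13n-4 and Trav14-3. Trav13n-4 held 67, 46 and 33 reads in WT and 28, 38 and 28 in KO, and its log2 difference was -0.67 ± 0.332 (SE). Trav14-3 held 89, 81 and 65 reads in WT and 63, 62 and 65 in KO, and its log2 difference was -0.36 ± 0.226 (SE). Both had every KO library under the lowest WT library in CPM. Their adjusted p-values were 0.492 and 0.576 (edgeR, Benjamini-Hochberg). Among alpha segments with a mean of at least 1 CPM, Trav7d-4 (log2 difference 0.82) and Trav14-2 (0.55) were also among the 5 smallest p on the higher side, and Trav6-5 (-0.15), Trav9-1 (-0.061) and Trav14-1 (-0.049) on the lower. Trav7d-4 is 99.6% identical to Trav7-4 over 451 aligned bases. Relative to the V reads of the locus the log2 difference of Trav7d-4 was 0.61, and its unadjusted p was not under 0.05. Trav6-4, named after its values were seen because its level was below that set for naming, had a log2 fold change of -1.43, which came from 3 reads each in KO 1 and KO 3 against 20 in KO 2 and 21, 21 and 25 in WT.

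Among beta segments Trbv14 had the smallest p. Trbv14 took 3.81 ± 0.0877% of beta V reads in WT and 4.365 ± 0.271% in KO, and Trbv20 3.38 ± 0.340% and 3.90 ± 0.0554% (SD, n = 3 each), and in both the KO libraries lay above the WT libraries. Their log2 differences were 0.25 ± 0.14 and 0.25 ± 0.149 (SE), with adjusted p-values of 0.528 and 0.551 (edgeR, Benjamini-Hochberg). Among beta segments with a mean of at least 1 CPM, the smallest p on the higher side after these belonged to Trbv29 (log2 difference 0.22), Trbv17 (0.19) and Trbv1 (0.16). On the lower side they belonged to Trbv31 (-0.20), Trbv16 (-0.11), Trbv24 (-0.34), Trbv19 (-0.055) and Trbv12-1 (-0.034). Of all 84 tested members 7 had no overlap between genotypes with KO higher and 2 with KO lower in CPM, that is 7 and 2 members where 7.80% and 8.65% of all genes had none. In shares, 12 of 75 alpha segments (6 higher and 6 lower in KO) and 4 of 26 beta segments (3 higher and 1 lower) had no overlap. Under random exchange of the genotype labels such a separation has a probability of 0.1. Among the 12, Trav7n-6 and Trav6d-3 held under 10 reads over the WT libraries, and Trav11n held under 10 over the KO libraries. These met the read minimum only through the genotype where they are higher, so their separation is a description. The 1 beta segment lower in KO was Trbv16, with the largest difference in beta share. It took 7.17 ± 0.167% in WT and 6.42 ± 0.329% in KO (SD, n = 3 each). The smallest exact permutation p after Benjamini-Hochberg adjustment was 0.625 for alpha and 0.650 for beta. The mean shares in WT and KO had a Pearson correlation of 0.958 over 75 alpha and 0.995 over 26 beta segments, a description across segments that share their libraries.

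**Figure D4:**
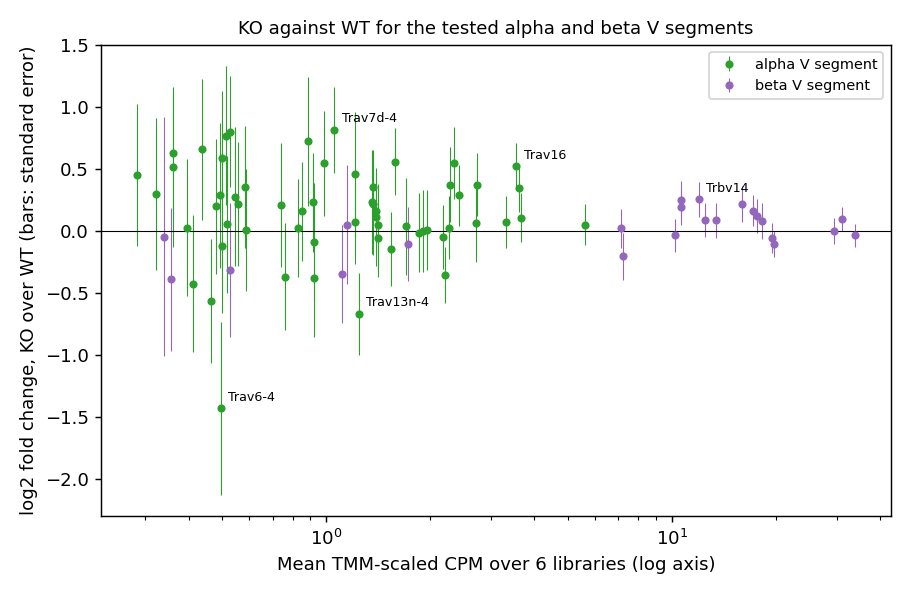
Fitted log2 fold change of KO over WT (vertical axis, bars give the standard error) against mean TMM-scaled CPM over 6 libraries (horizontal log axis) for the 82 tested alpha (green) and beta (purple) V segments. Beta segments lie between -0.39 and 0.25, alpha segments between -1.43 and 0.82 with wide bars, and no segment passed the adjusted threshold.

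Without a filter on low counts 4 members passed, all higher in KO, where 1.76% of 29109 genes passed. They were Trav7d-2, Trav6-6, Trav12d-2 and Trav7n-6, and the first 3 are the segments described above that peaked in 1 KO library each. Trav7n-6 held 0 reads in all WT libraries and 1, 20 and 9 in KO. KO 2 held 20 of its 30 reads. Over the 3 WT libraries each of the 4 held under 10 reads, so each met the read minimum only through KO. Their passing and its direction are thus a description, and no fold change is given for them.

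The diversity of V usage did not separate the genotypes. It was measured as the effective number of segments, the exponential of the Shannon entropy, which is the number of equally used segments that would give the same entropy. For alpha it was 49.1, 47.05 and 46.7 in WT and 49.6, 47.9 and 49.2 in KO, means of 47.6 ± 1.33 and 48.9 ± 0.886 (SD, n = 3 each, exact permutation p = 0.2). For beta it was 16.7, 16.6 and 16.3 in WT and 16.6, 16.8 and 16.2 in KO, means of 16.5 ± 0.199 and 16.5 ± 0.30 (SD, n = 3 each, exact permutation p = 1). With alpha segments summed by family the difference between KO and WT turned from 1.28 to -0.15 families. Brought to the same 1925 alpha reads by rarefaction, the libraries held 69.7 ± 1.61 alpha segments in WT and 70.2 ± 1.19 in KO (SD, n = 3 each).

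Usage profiles of KO and WT libraries were also about as far from each other as libraries of 1 genotype. The Bray-Curtis distance, the share of reads that would have to move between segments to turn one profile into the other, was 0.160 on average between genotypes and 0.154 within them for alpha, and 0.0464 and 0.0410 for beta. An exact one-sided permutation test gave p = 0.2 for each, and with beta segments summed by family it gave p = 0.1, the smallest possible. For alpha the 6 distances within genotypes ran from 0.142 to 0.172 and the 9 between from 0.130 to 0.184, so they overlapped. For beta those within ran from 0.0309 to 0.0487 and those between from 0.0354 to 0.0725, the highest being that of WT 3 and KO 1. Without WT 3 the beta difference turned to -0.0014. Profiles varied beyond counting error, for which the value would be near 1: the chi-square per degree of freedom over 6 libraries was 6.06 for alpha, 3.28 for alpha without segments of under 1% unique windows, and 3.145 for beta.

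Along the locus the mean place of alpha V usage, from 1 at the upstream end, was 83.3 ± 1.05 in WT and 81.8 ± 1.815 in KO (SD, n = 3 each, exact permutation p = 0.4). The joining segments gave few reads, between 233 and 383 per library for Traj. The mean Traj number, which falls toward the constant gene, was 10.35 ± 0.9485 in WT and 11.3 ± 0.554 in KO (SD, n = 3 each, exact permutation p = 0.2), and with segments of at least 100 reads alone the difference turned from 0.91 to -0.26. Traj1, annotated as a pseudogene, and Traj2 and Traj3 held the largest shares, 12.7%, 8.42% and 8.03% of Traj reads. Among beta joining segments Trbj2-7 (22.4%), Trbj2-6 (22.2%, annotated as a pseudogene) and Trbj1-3 (8.28%) led. Pseudogenes thus stood among the leaders of both loci, and Traj reads mostly thinned out with distance from the constant gene. Whether J reads reflect the J segments joined in the cells was not tested, which limits the mean Traj number and the Trbj2 share alike. The Trbj2 cluster took 67.45%, 66.2% and 62.3% of Trbj reads in WT and 72.3%, 67.7% and 68.3% in KO. All KO libraries lay above all WT libraries, and the exact permutation p was 0.1, the smallest this design allows. WT 1 and KO 2 lay close together, and the difference of 4.14 points was 2.63 without WT 3 (exact permutation p = 0.3) and 2.72 without KO 1 (p = 0.2). The constant gene of that cluster, Trbc2, took 70.0 ± 0.833% of Trbc1 and Trbc2 reads in WT and 70.5 ± 0.382% in KO (SD, n = 3 each, exact permutation p = 0.4).

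**Figure D5:**
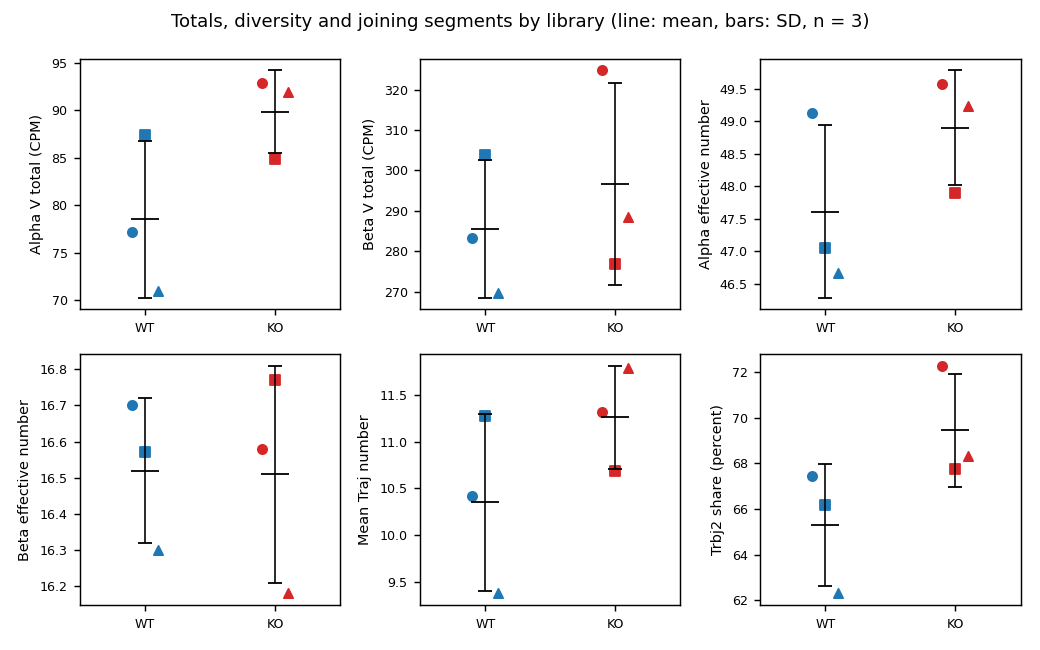
TMM-scaled CPM of all alpha and all beta V segments, effective number of segments, mean Traj number and Trbj2 share (vertical axes, not starting at 0) in 3 WT and 3 KO libraries, with 1 point per library, the mean as a line and the SD as bars. The libraries of both genotypes overlap in every panel except that of the Trbj2 share, where KO lies at 67.7% to 72.3% and WT at 62.3% to 67.45%.

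Summed over segments, alpha V levels were 77.2, 87.4 and 71.0 CPM in WT and 92.8, 84.8 and 91.9 CPM in KO (exact permutation p = 0.2), and beta V levels averaged 285.6 ± 17.1 CPM over WT and 296.7 ± 25.0 CPM over KO libraries (SD, n = 3 each, exact permutation p = 0.6). For every 100 reads of Trac there were 41.2 ± 3.47 alpha V reads in WT and 39.6 ± 3.44 in KO (SD, n = 3 each). Trac itself did not pass the test: its level averaged 190.5 ± 6.96 CPM over WT and 227 ± 9.10 CPM over KO libraries (SD, n = 3 each), and its adjusted p was 0.354 (edgeR, Benjamini-Hochberg). All 6 genes of the receptor complex (Cd3d, Cd3e, Cd3g, Cd247, Cd8a, Cd8b1) had log2 fold changes above 0, with a median of 0.19 and 0 called, where 47.2% of all genes were above 0. Cd247, the zeta chain that carries the signal inward, averaged 230.3 ± 8.80 CPM over WT and 267 ± 12.98 CPM over KO libraries (SD, n = 3 each).

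Genes that make the joins gave no call either. Of 15 genes of V(D)J recombination 13 were tested, 6 above 0 and 7 below in log2 fold change, with a median of -0.035 and 0 called. Dntt, which adds untemplated bases at the joins, held 51, 58 and 34 reads in WT and 92, 74 and 119 in KO, and its log2 difference of 0.94 ± 0.271 (SE) had an adjusted p of 0.345 (edgeR, Benjamini-Hochberg). Xrcc4, part of the ligation complex, was at 0.31 and Dclre1c, the Artemis nuclease that opens the hairpins, at -0.33 in log2 fold change. Rag1 held between 6 and 19 reads and Rag2 held 0 in every library, which allows up to 3 reads in each.

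Delta and gamma segments were scarce. Trdv1 held 24, 12 and 8 reads in WT and 18, 18 and 17 in KO, Trdv5 held 51 reads over the 6 libraries and Trdv4 held 17. Trgv2, the 1 gamma segment named in this style, held 21, 10 and 8 reads in WT and 11, 11 and 9 in KO. The log2 fold changes were 0.245 for Trdv1 (0.028 without WT 3 and 0.69 without WT 1) and -0.35 for Trgv2 (0.069 without WT 1), and the other 2 were too low to test. A further 6 gamma V genes named Tcrg-V in the annotation fell outside the rule and held between 1 and 12 reads each. Markers of gamma delta T cells summed to between 7.83 and 10.25 CPM in WT and between 6.20 and 9.01 CPM in KO, with Sox13 at 0 in WT 2, WT 3, KO 1 and KO 3. Markers of natural killer T and mucosal-associated T cells summed to between 13.8 and 15.4 CPM in WT and between 12.3 and 13.02 CPM in KO, most of it Slamf1 and Klrb1c. These sums did not overlap between genotypes. Klrb1c was at -0.75 and Slamf1 at 0.034 in log2 fold change, and neither was called. The list also holds Trav1, itself a member. None of the CD4 T cell, B cell and myeloid markers was called, though 4 of 4, 5 of 5 and 3 of 3 tested had log2 fold changes below 0. Their summed levels overlapped between genotypes, and Foxp3 was the largest part of the CD4 sum. Cd4 averaged 3.71 ± 0.982 CPM over WT and 1.80 ± 0.701 over KO libraries, and Pax5 14.65 ± 4.26 and 7.52 ± 3.35 (SD, n = 3 each). These 2 and Cd40lg, under 1 CPM, did not overlap, where 8.65% of all genes were lower without overlap. The other markers of these lists overlapped. The part of all these cells in the V segment values was not tested.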

How the data were processed

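Per the labels' protocols, Trizol was used for RNA and a Vazyme kit for mRNA libraries. The authors' deposited table holds raw read counts per Ensembl gene, 1 column for each of 6 samples. The submitters' processing notes name HISAT2, Subread, featureCounts and GRCm39. Not given in the sources used here are versions, annotation, strand setting and the handling of multi-mapped reads. Symbols, exon lengths, gene order and transcript sequences came from GENCODE M21 on GRCm38, by exact Ensembl identifier (52081 matched), and no coordinates are given because the builds differ.

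Libraries were scaled by TMM. KO was compared with WT by edgeR 4.0.16 (R 4.3.3, limma 3.58.1, filterByExpr with minimum count 10 and minimum total 15, glmQLFTest, two-sided, genotype alone as a term), fitted on all genes. DESeq2 1.42.0 was an alternative. Shares are percentages of the member reads of a locus. Exact permutation tests and Wilson intervals at 95% used scipy 1.17.1, and alignments Biopython 1.88. Scripts were tested on simulated data. No pair of libraries matched within sampling noise (chi-square per gene at least 16.0).

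Members, lists and tests were chosen with earlier results of these data known. Segments were named by share (10 per locus), by smallest p (5 per direction and locus, mean of at least 1 CPM), and for a peak in 1 library. Recombination, complex and marker genes came from fixed lists. No sample was left out.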

Additional observations from a re-analysis of the deposited data

How the results depend on the processing

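No alternative gave a called V segment except the fit without a filter on low counts. It called 4, each of which met the read minimum only through KO. Alpha diversity turned to -0.15 with families and to -0.11 with segments of at least 50% unique windows, a limit chosen after the data were seen, under which the alpha V place also turned, to 0.021. The difference in mean Traj number became -0.26 with segments of at least 100 reads. The beta V total, 0.053 on the log2 scale, became -0.013 when scaled by library size alone, and ran from -0.013 (without KO 1) to 0.10 with 1 library left out. Beta diversity, -0.013, became 0.043 with families, 0.037 with at least 100 reads and 0.19 by inverse Simpson index, and ran from -0.14 to 0.15 with 1 library left out. The beta distance, 0.0054, was 0.0079 with families (exact permutation p = 0.1) and ran from -0.0014 (without WT 3) to 0.011. With 1 library left out the log2 fold changes ran from -0.15 to 0.10 for Trav14-1, -0.23 to 0.13 for Trav9-1, -0.077 to 0.025 for Trbv12-1, -0.13 to 0.033 for Trbv19, -0.55 to 0.037 for Trbv24, -0.52 to 0.069 for Trgv2 and 0.028 to 0.69 for Trdv1. The cause was not tested in any of these. With the replicate number as a block 0 V segments were called, as without it. Same-numbered samples had correlations of deviations of 0.067, -0.52 and -0.12, and 0 of 6 samples correlated best with its own number. Differently numbered samples ran from -0.54 (WT 3 and KO 1) to 0.66 (WT 3 and KO 2). With 3 samples per genotype these values cannot show whether samples were paired. Between 1925 and 3141 alpha V reads per library limit what alpha shares can show.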
